A study of Mus musculus with 81 samples.

Results

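Heart pools were set against each other by their level of Myh7, the gene of beta myosin heavy chain. The 81 arrays were ranked within each diet on the single probe set of Myh7, and the 8 highest and 8 lowest of each diet were taken. This gave 16 high and 16 low Myh7 arrays, 32 of 81, with 49 arrays in neither group. Each array held whole heart RNA of 1 pool of about 5 male mice aged 29 weeks, perfused after an overnight fast. The mice were of the parental strains C57BL/6J and DBA/2J or of BXD strains, inbred lines descended from both. There were 42 chow and 39 high fat arrays, and 39 strains had both. RNA was pooled by strain and diet before hybridisation, so the arrays do not show the spread between animals, and no strain had a second array on the same diet. What the high fat diet contained was not given, and the protocol text, shared by all samples, names chow only.

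Beta myosin heavy chain is the slow motor of the thick filament, and in the mouse it dominates in the fetal ventricle. After birth thyroid hormone shifts the ventricle to alpha myosin heavy chain, the faster motor encoded by the neighbouring gene Myh6. Under pressure overload or in failing hearts Myh7 can return with natriuretic peptides and skeletal alpha actin, a set known as the fetal gene program. MicroRNAs lie within the myosin genes, and miR-208b is encoded inside Myh7. MCAT elements, bound by TEAD factors, are known from promoters of contractile protein genes.

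The promoter windows of the neighbouring cardiac myosin genes are shown because both genes are described below and only 1 of them chose the arrays. Both come from RefSeq on GRCm38.p6 and run 5′ to 3′ on the minus strand, from 250 bases before to 50 bases after an annotated start. Myh7 is at chr14:54994577-54994876, its first listed start, and Myh6 at chr14:54966558-54966857. Capitals mark the MCAT letters CATTCC, which stand here in reverse complement.
Myh7: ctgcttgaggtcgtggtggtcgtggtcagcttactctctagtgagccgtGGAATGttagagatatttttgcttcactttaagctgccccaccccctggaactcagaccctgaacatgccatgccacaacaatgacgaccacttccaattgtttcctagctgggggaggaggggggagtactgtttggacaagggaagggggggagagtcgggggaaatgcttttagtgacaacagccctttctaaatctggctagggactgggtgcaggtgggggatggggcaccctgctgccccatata
Myh6: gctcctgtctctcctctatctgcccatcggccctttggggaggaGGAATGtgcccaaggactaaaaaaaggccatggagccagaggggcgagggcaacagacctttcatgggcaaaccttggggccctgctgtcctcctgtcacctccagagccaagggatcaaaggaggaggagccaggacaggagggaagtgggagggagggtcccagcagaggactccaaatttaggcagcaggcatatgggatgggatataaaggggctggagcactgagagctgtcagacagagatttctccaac
The match began at position -201 from the start in Myh7 and at -206 in Myh6. The window of the other listed Myh7 start, which overlaps the first, held 0 matches. CATTCC was searched on both strands and occurred in 14.7% of 32851 promoter windows of the same length. TATAAA occurred at position 2 from the start in Myh6, was not found in either Myh7 window, and occurred in 13.6% of all windows. A match describes letters in a window and not a bound site.

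The mature microRNAs of the 3 myosin genes are shown because their transcripts lie within the measured loci. Sequences are from RefSeq, and capitals mark the seed, bases 2 to 8.
miR-208a-3p: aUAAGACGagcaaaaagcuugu
miR-208b-3p: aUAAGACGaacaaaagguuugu
miR-499-5p: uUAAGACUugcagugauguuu
MiR-208a lies within the span of Myh6, miR-208b within Myh7 and miR-499 within Myh7b. MiR-208a-3p and miR-208b-3p differed at 3 bases and share their seed.

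Values are in the rescaled expression units of the deposited table. The table fixes the probe sets of every array at mean 8 and SD 2, and the scale behaves like a logarithm of unstated base, so differences are in units and not in folds. All 12 cardiomyocyte markers examined lay above the median gene, among them Myh6 with a mean of 15.5 units over the 81 arrays. Myh7 averaged 11.6 units, above 94.3% of genes, with an SD of 0.579 against 0.207 for the median gene. The median correlation of an array with the other arrays lay between 0.978 and 0.988 in the arrays of neither group, and between 0.979 and 0.987 in the 32 chosen arrays.

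Myh7 chose the arrays, so its levels in them are a description without a test. The 8 high chow pools had a lowest value of 12.434, a median of 12.62 and a highest of 13.051 units, led by BXD84 and BXD73. The 8 low chow pools ran from 10.65 in C57BL/6J, with a median of 11.059, to 11.215 in BXD87. On high fat the high pools ran from 11.892 in BXD73, with a median of 12.0165, to 12.439 in BXD101. The low high fat pools ran from 10.304 in BXD45, with a median of 10.7735, to 11.027 in BXD81. The chosen pools are the ends of a continuous range and not separate clusters. On chow BXD103 was the last high pool at 12.434 and BXD75 fell just outside at 12.415, while BXD95 at 11.326 lay just above the low pool BXD87 at 11.215. On high fat BXD73 at 11.892 was just inside and BXD71 at 11.858 just outside, while DBA/2J at 11.061 lay just above BXD81 at 11.027.

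**Figure D1:**
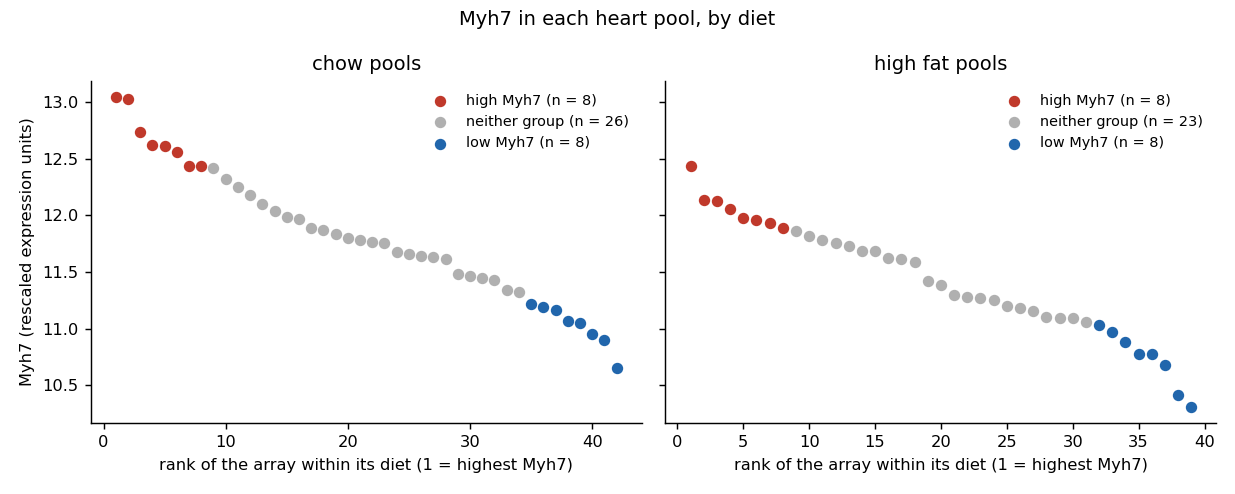
Myh7 in rescaled expression units (vertical axis) against the rank of each array within its diet (horizontal axis), with chow on the left and high fat on the right. Each point is 1 pool, and the red and blue pools are the 8 highest and 8 lowest of each diet, which join the grey pools without a gap: 12.434 units inside and 12.415 outside at the upper chow edge.

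Strains that ranked high for Myh7 on 1 diet also had more Myh7 than low strains in the pool of the other diet, which holds other animals. Ranked on chow and measured on high fat, 7 high strains had Myh7 of 11.8 ± 0.510 units (SD, n = 7) and 8 low strains 10.99 ± 0.369 (SD, n = 8). The high strains ran from 11.093 through a median of 11.892 to 12.439, the low strains from 10.411 through 11.044 to 11.683. The difference was 0.805 units, with an exact two-sided permutation p of 0.00466 (adjusted over 2 tests 0.00466), and 5 of 7 high strains lay above every low strain. Ranked on high fat and measured on chow, the high strains ran from 11.616 through a median of 12.4325 to 13.031 and the low strains from 10.65 through 11.306 to 11.679. That difference was 1.08 units, with an exact permutation p of 0.000622 (adjusted 0.00124), and 7 of 8 high strains lay above every low strain.

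Over the 39 paired strains, Myh7 on chow and Myh7 on high fat correlated with Pearson's r of 0.564 (two-sided permutation p = 9e-05) and Spearman's rho of 0.593 (p = 0.00012). Without BXD73 and BXD84, the strains farthest from the chow median, r was 0.628. Each group held 12 strains. BXD43, BXD73, BXD97 and BXD101 were high on both diets, BXD81, BXD90, BXD98 and C57BL/6J were low on both, and 0 strains were high on 1 diet and low on the other. BXD84 had the highest Myh7 on chow and was not in the high group on high fat.

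**Figure D2:**
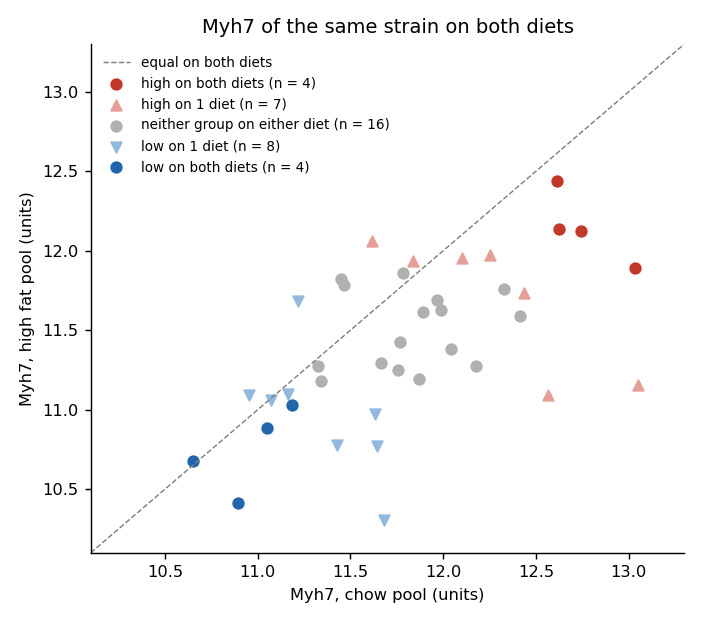
Myh7 of each of the 39 paired strains on chow (horizontal axis, units) and on high fat (vertical axis, units), with colour for the groups it fell in and a dashed line of equal values. The 4 strains high on both diets and the 4 low on both lie at opposite ends, and most points lie below the line (31 of 39 strains had less Myh7 on high fat).

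Myh7 was lower on high fat. It averaged 11.8 ± 0.597 units on chow and 11.42 ± 0.4998 on high fat (SD, n = 39 strains each), and was lower in 31 of 39 strains. The difference was -0.395 ± 0.0789 units (SE; adjusted p = 7.19e-05, limma with strain and diet), in a comparison where 45.0% of genes were called. Ranks were taken within each diet, and diet was a term of every fit below.

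Few other genes followed Myh7 between the high and low pools. Of 22179 genes, 3 were higher and 1 was lower in the high Myh7 pools at an adjusted p under 0.05 (limma with diet), which is 0.0180% of genes (0.0135% higher and 0.00451% lower). The higher genes were Myot, a Z-disc protein that binds alpha-actinin and actin filaments, Edn3, a vasoactive peptide of the endothelin family, and Cnksr1, a scaffold protein of Ras signalling. The lower gene was Gm10336, a long noncoding RNA. An unadjusted p under 0.05 was reached by 672 genes upward (3.03%) and 944 downward (4.26%), together 7.29% of genes. The median difference over all genes was -0.00725 units, with 5% of genes below -0.149 and 5% above 0.127. Of all genes 46.0% lay above 0.

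Myot had the largest difference of the 4. Its values in the high pools ran from 11.775 through a median of 12.632 to 13.42 units, and in the low pools from 10.834 through 11.6125 to 12.458. On chow 7 of 8 high pools lay above every low pool, and on high fat 6 of 8. The exception on chow was BXD84, the pool with the most Myh7, at 11.89. The difference was 0.97 ± 0.153 units (SE; 95% interval 0.654 to 1.28; adjusted p = 0.00378, limma), with 1.02 on chow and 0.907 on high fat.

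Edn3 had the smallest adjusted p. It ran from 8.89 through a median of 9.277 to 9.566 units in the high pools and from 8.344 through 8.748 to 9.098 in the low pools, and 6 of 8 high pools lay above every low pool in each diet. Its difference was 0.489 ± 0.0690 units (SE; adjusted p = 0.000758, limma). Its promoter window (RefSeq, GRCm38.p6, chr2:174760369-174760668, plus strand, 5′ to 3′) is shown for this gene because it led the comparison.
Edn3: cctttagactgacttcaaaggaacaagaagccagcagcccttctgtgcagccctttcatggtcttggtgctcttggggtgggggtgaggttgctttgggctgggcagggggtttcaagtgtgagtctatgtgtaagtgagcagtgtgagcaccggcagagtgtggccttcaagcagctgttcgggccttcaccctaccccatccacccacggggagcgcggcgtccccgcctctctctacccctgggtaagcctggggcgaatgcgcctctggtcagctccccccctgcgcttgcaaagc
Neither CATTCC nor TATAAA was found in it on either strand.

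Cnksr1 ran from 8.656 through 9.076 to 9.904 units in the high pools and from 8.439 through 8.608 to 9.081 in the low pools. Its difference was 0.453 ± 0.0868 (SE; adjusted p = 0.0480, limma), with 4 of 8 high pools above every low pool on chow and 6 of 8 on high fat. Gm10336 ran from 9.721 through 10.5845 to 11.298 in the high pools and from 10.578 through 11.1505 to 11.372 in the low pools, a difference of -0.586 ± 0.111 (SE; adjusted p = 0.0480, limma). On chow all 8 high pools lay below every low pool, where 0.0361% of genes had groups that did not overlap. On high fat 3 of 8 did, so its groups overlapped there, as did those of all but 0.00902% of genes.

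Kcnd2, the pore subunit of the transient outward potassium current, was close to the threshold. It ran from 10.762 through 11.0625 to 11.549 units in the high pools and from 11.121 through 11.3895 to 11.751 in the low pools, and its difference of -0.342 ± 0.0715 (SE) had an adjusted p of 0.0839 (limma). On chow all 8 high pools lay below every low pool, and on high fat 4 of 8 did. Within both diets, 0 genes separated the groups. The share of genes was computed for complete separation only, so counts such as 4 of 8 here and above are a description.

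**Figure D3:**
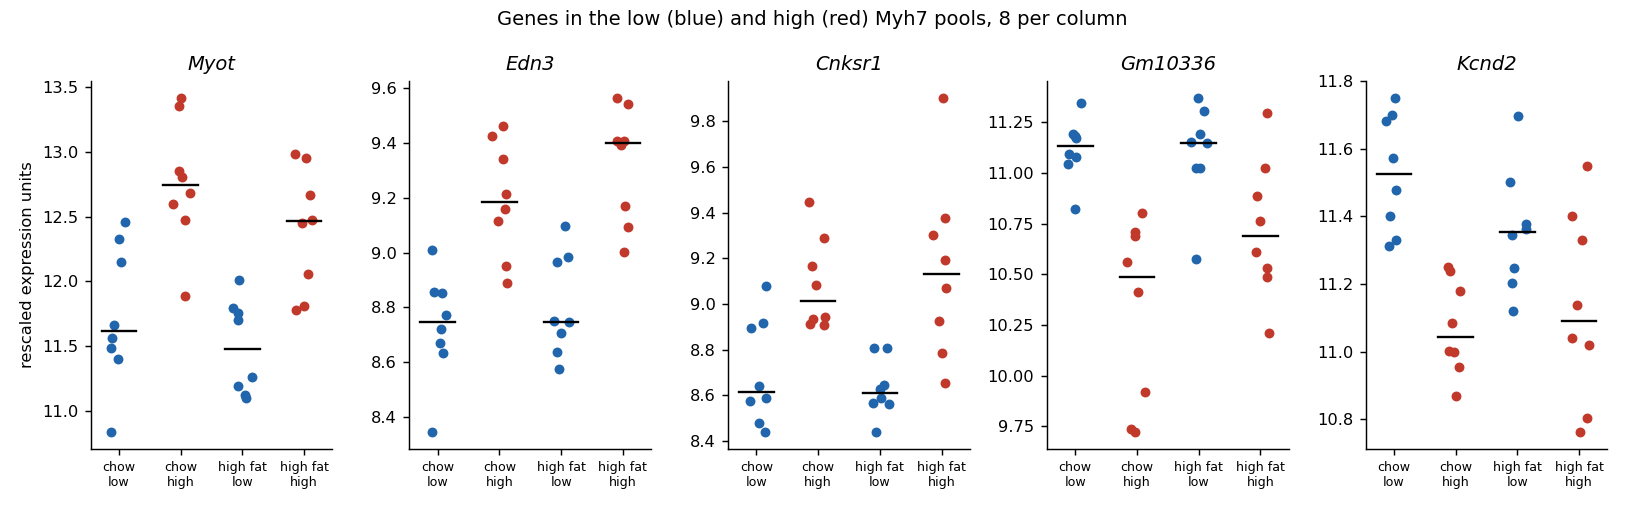
Values of Myot, Edn3, Cnksr1, Gm10336 and Kcnd2 in rescaled expression units (vertical axes) in the low (blue) and high (red) Myh7 pools of each diet. Points are pools, 8 per column, and bars are medians: Myot had medians of 12.743 and 11.6125 in the high and low chow pools, and Gm10336 and Kcnd2 did not overlap between the chow groups.

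Both Myot and Edn3 kept their calls with strain as a random block, which allows for strains that gave 2 arrays (adjusted p = 0.00574 and 0.00318, limma). Cnksr1 and Gm10336 did not, both with an adjusted p of 0.104, and neither was called when the parental strains were left out. Of 14 smooth muscle and pericyte markers 0 were called. At an unadjusted p under 0.05 (limma), 5 were lower and 0 higher, where 4.26% and 3.03% of all genes were. Of the 14 markers 5 lay above 0, with a median difference of -0.102. Their mean ran from 10.999 through 11.27 to 11.45 units in the high pools and from 11.2 through 11.4 to 11.6 in the low pools. With that mean as a covariate, chosen after seeing the data, 0 genes were called: Edn3 differed by 0.436 (adjusted p = 0.0784), Myot by 0.733 (0.169), Cnksr1 by 0.396 (0.387) and Gm10336 by -0.581 (0.169). In whole heart RNA, fewer cells of a type and less RNA per cell cannot be told apart.

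Genes of the fetal and stress program lay on both sides of 0. Of 29 measured genes of that list, 0 were higher and 0 were lower at the adjusted threshold, and the smallest adjusted p was 0.486. With 0.0180% of all genes called, a count of 0 in a list of this size does not set it apart from other genes. At an unadjusted p under 0.05, 5 were higher and 3 lower, where 3.03% and 4.26% of all genes were. Their median difference was 0.0354 units, against -0.00725 over all genes, and 15 of 29 were above 0, where 46.0% of all genes were. Gdf15, the thirtieth listed gene, was not analysed here.

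The natriuretic peptides, hormones that the stressed heart secretes, did not separate the groups. Nppb, B-type natriuretic peptide, ran from 12.731 through 13.6595 to 14.603 units in the high pools and from 12.615 through 13.739 to 14.24 in the low pools. Its difference was 0.0655 ± 0.176 (SE; 95% interval -0.292 to 0.423; adjusted p = 0.973, limma). Nppa, atrial natriuretic peptide, ran from 14.346 through 15.587 to 15.996 in the high pools and from 14.163 through 15.6855 to 16.175 in the low pools, a difference of -0.228 ± 0.158 (SE; adjusted p = 0.816). Both groups overlapped nearly throughout. In the 13 genes of the natriuretic pathway, receptors and the processing enzyme Corin included, 0 were called in either direction, with a median of -0.0187.

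The actins of the program gave wide intervals. Acta1, skeletal alpha actin, ran from 12.703 through 13.634 to 15.107 units in the high pools and from 12.396 through 13.3185 to 14.944 in the low pools. Its difference of 0.378 had a 95% interval of -0.118 to 0.874 (adjusted p = 0.791, limma). Acta2, smooth muscle alpha actin, ran from 11.884 through 12.7005 to 14.721 in the high pools and from 12.956 through 13.5925 to 14.291 in the low pools, a difference of -0.627 ± 0.214 (SE; unadjusted p = 0.00599, adjusted 0.486). Tagln, another smooth muscle gene on the list, differed by -0.269 (adjusted p = 0.609) and the actin crosslinker Actn1 by -0.162 (0.547). These 3 were the list's members under an unadjusted p of 0.05 on the lower side, and Acta2 and Tagln are also among the smooth muscle markers given above.

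On the higher side stood Rcan1, a calcineurin regulator, at 0.261 (adjusted p = 0.547, limma), Ankrd23, a titin-binding ankyrin repeat protein, at 0.201 (0.593), and the actin-binding Xirp1 and Xirp2 at 0.183 (0.520) and 0.180 (0.533). Enah, an actin regulator, stood at 0.145 (0.682). Ankrd1, a stretch-responsive protein, differed by 0.0716 units, and Csrp3, a Z-disc sensor, by 0.0542. The growth factor gene Ccn2 differed by 0.268 and Mybpc2 by 0.250, with intervals that crossed 0. The fetal troponins Tnni1 and Tnnt1 differed by -0.0743 and -0.0748, and Timp1, Lgals3 and Uchl1 by -0.0734, -0.134 and -0.148. Slc2a1, Hk1, Pfkp, Igf1, Fhl1 and Nmrk2 lay between -0.0362 and 0.0951.

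**Figure D4:**
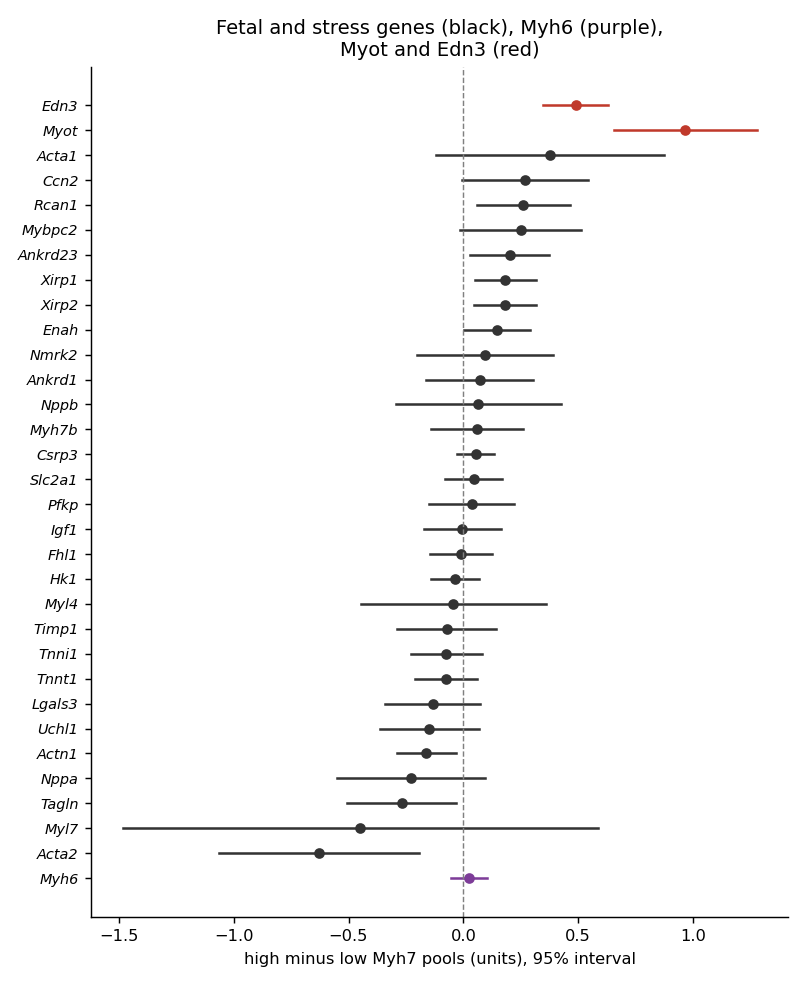
High minus low Myh7 pools in units (horizontal axis, point with 95% interval, 16 pools per group) for the 29 measured fetal and stress genes in black, Myh6 in purple and Myot and Edn3 in red. The fetal and stress genes run from -0.627 (Acta2) to 0.378 (Acta1), while Myot stands at 0.97.

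The atrial light chains Myl7 and Myl4, made in the fetal ventricle too, varied widely between pools. Myl7 ran from 7.82 to 14.282 in the high pools and from 8.967 to 15.039 in the low pools, and its difference of -0.448 had an interval of -1.48 to 0.586. Myl4 differed by -0.0437. All 14 measured atrial markers, Nppa, Myl7 and Myl4 among them, were below 0, with a median of -0.235 and 0 called. The mean of the atrial markers ran from 9.19 through 10.9 to 11.3 units in the high pools and from 9.16 through 11.34 to 11.97 in the low pools. With the atrial mean as a covariate none of these 3 genes was called (limma), and none was called without it. All 3 belong to the list behind that mean, so the covariate holds their own values and the result decides nothing. The part of that mean in their values was not tested.

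Among the other myosin heavy chains, 0 of 11 were called in either direction. Myh6, the adult partner of Myh7, ran from 15.345 through 15.481 to 15.75 units in the high pools and from 15.279 through 15.502 to 15.638 in the low pools. Its difference was 0.0261 ± 0.0384 (SE; 95% interval -0.0520 to 0.104; adjusted p = 0.937, limma). Myh7b, the ancient slow myosin that hosts miR-499, differed by 0.0582 (adjusted p = 0.952). Myh3, embryonic skeletal myosin, differed by 0.188 (unadjusted p = 0.00472, adjusted 0.460), and Myh11, smooth muscle myosin, by -0.275 (0.00858, adjusted 0.515). The nonmuscle Myh9, Myh10 and Myh14 lay between -0.0394 and 0.0185, and the skeletal Myh1, Myh2, Myh4 and Myh8 between -0.143 and 0.0358.

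At the Myh7 locus, Mhrt, a noncoding RNA transcribed antisense there, differed by -0.119 ± 0.0704 units (SE; adjusted p = 0.757, limma). Whether its probe set tells the strands apart was not tested. The probe set of Mir208b, whose mature sequence is printed above, differed by 0.0976 (adjusted p = 0.933) at a mean of 6.37 units, below the median gene. Mir208a differed by -0.0996 (0.958) and Mir499 by 0.124 (0.868). None of the 16 nearest measured neighbours of Myh7 was called, with the smallest adjusted p at 0.719 for Cmtm5.

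Sarcomere genes were examined by their place in the filament. The list of titin, M-band and Z-disc proteins was the only 1 of the 51 lists examined with a called gene. In it 1 of 24 genes was higher (Myot) and 0 lower, and 19 of 24 were above 0 with a median of 0.0586. Tcap, the titin cap, differed by 0.281 (adjusted p = 0.489, limma) and Nebl, nebulette, by -0.105 (0.533). Of 20 thick and thin filament proteins 0 were called. Lmod2, a leiomodin that lengthens thin filaments, differed by 0.137 (0.422) and Tmod1, which caps them, by -0.196 (0.410). Myl3, the ventricular essential light chain, differed by 0.103 (0.580).

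Genes known to fall in the stressed adult heart gave 0 calls of 23, with 9 of 23 above 0 and a median of -0.0135. Tcap, also a Z-disc gene and given above, was the largest on the higher side at 0.281. Besides Kcnd2, Ppara, a nuclear receptor for fatty acids, differed by -0.218 (adjusted p = 0.464, limma) and the connexin Gja1 by -0.130 (0.584). Of 23 ion channels and connexins 19 lay below 0, with a median of -0.106 and 0 called. At an unadjusted p under 0.05 (limma), 7 of them were lower and 1 higher, where 4.26% and 3.03% of all genes were. Kcnh2 and Kcnq1, delayed rectifier channels, differed by -0.181 (0.422) and -0.179 (0.464), and the sodium channel subunit Scn4b by 0.330 (0.547). In the thyroid hormone list, 0 of 20 were called, and Slc16a10, a thyroid hormone transporter, differed by -0.238 (0.451). Of 36 cardiac transcription factors 0 were called: Gata6 differed by -0.179 (0.235), Vgll2, a TEAD cofactor, by 0.302 (0.242) and Hopx by 0.132 (0.630).

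Signalling and stress lists gave 0 calls as well, and their counts above 0 stand against 46.0% of all genes. Of 22 immediate early genes 21 lay above 0 with a median of 0.124: Btg2 differed by 0.449 (adjusted p = 0.132, limma), Egr1 by 0.506 (0.428), Junb by 0.242 (0.422) and Zfp36 by 0.291 (0.493). Of 19 genes of atrophy and autophagy 17 lay above 0, with the ubiquitin ligase Trim63 at 0.164 (0.487) and Gabarapl1 at 0.237 (0.547). Of 24 hypertrophy kinases and phosphatases, 8 lay above 0, and Rcan1 had the smallest p. Chrm2, the cardiac muscarinic receptor, differed by -0.173 (0.440) and the calcium channel subunit Cacnb2 by -0.179 (0.451). Fasting targets of PPAR had a median of 0.0651 over 16 genes, with Txnip at 0.270 (0.527) and Cyp4a14 at 0.538 (0.609). Of 36 matrix genes 12 lay above 0, with Thbs4 at 0.359 (0.353) and Cilp, a cartilage-type matrix protein, at 0.734 (0.422).

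White adipocyte markers had a median difference of -0.378 units, without a call. At an unadjusted p under 0.05 (limma), 6 of 10 measured members were lower and 0 higher, where 4.26% and 3.03% of all genes were. The mean of the 10 measured members ran from 9.43 through 9.64 to 9.86 units in the high pools and from 9.30 through 9.99 to 10.6 in the low pools, and 8 of 10 members lay below 0. Cidec, a lipid droplet protein, differed by -0.850 (adjusted p = 0.163, limma), Plin1 by -0.594 (0.308) and Retn by -0.465 (0.386). Brown adipocyte markers had a median of -0.0346, with 3 of 10 above 0 and 0 called, and Dio2, Zic1 and Lhx8 at -0.166, -0.0879 and -0.0909. Ucp1, the uncoupling protein of brown fat and the largest of that list, was 7.25 ± 0.363 in the high and 8.46 ± 1.36 in the low pools (SD, n = 16 each), a difference of -1.21 (0.242). Macrophage markers had a median of -0.126, endothelial markers 0.0366, fibroblast markers -0.0487 and skeletal muscle markers 0.00441, all with 0 called. Mesothelial and epicardial markers had a median of -0.145, also with 0 called. At an unadjusted p under 0.05 (limma), 4 of 15 macrophage and 3 of 11 mesothelial markers were lower and 0 higher. Of 12 fibroblast markers 1 was lower, and of 13 endothelial and 16 skeletal muscle markers 1 each was higher, with 0 the other way. With the adipocyte, atrial or skeletal muscle mean as a covariate 2 genes each were called, among the 4 named above.

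The same genes were then examined with each array placed by the Myh7 level of its strain's other array. When a strain was placed by its rank on the other diet, 1 gene was called of 22180 (0.00451%), Myh7 itself, at 0.948 units (adjusted p = 0.00447, limma). The Myh7 result rests on the same pools as the permutation tests given above and adds no independent test. An unadjusted p under 0.05 was reached by 6.31% of genes. Myot differed by 0.83 ± 0.156 (SE; adjusted p = 0.0606) and Gm10336 by -0.555 ± 0.108 (0.0606). Btg2, an immediate early gene not called in the main comparison, came as near, at 0.662 ± 0.126 (SE; adjusted p = 0.0606, limma). Edn3 differed by 0.338 (0.492), Cnksr1 by 0.290 (0.690) and Kcnd2 by -0.273 (0.522). All of these genes had the direction of the main comparison, which is not independent of this one. The strains high on both diets (4) or low on both (4) gave the same arrays with the same group to both comparisons.

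In the 49 arrays of neither group, slopes were taken per unit of Myh7 with diet in the model. No gene was called, and 1083 genes (4.88%) had an unadjusted p under 0.05 (limma). Myot had a slope of 0.80 ± 0.234 units per unit of Myh7 (SE; unadjusted p = 0.00124, adjusted 0.906), Edn3 had a slope of 0.344 (0.0132, adjusted 0.974) and Kcnd2 of -0.290 (0.00688, adjusted 0.974). Gm10336 had a slope of -0.0162 (unadjusted p = 0.913) and Cnksr1 of 0.185 (0.268).

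Over all 81 arrays, which include the chosen ones, 26 genes were called on the slope, 13 in each direction (0.117% of genes), and all 4 genes of the group comparison were among them. With strain as a random block 14 genes were called, all among the 26, and Cnksr1 was not (adjusted p = 0.0559). Myot had a slope of 0.62 (adjusted p = 0.000923, limma), Gm10336 of -0.349 (0.0015), Kcnd2 of -0.235 (0.0015) and Edn3 of 0.281 (0.00455). Gata6, a cardiac transcription factor, had a slope of -0.108 (0.0405), Slc16a10 of -0.163 (0.0348) and Pla2g5, a secreted phospholipase, of -0.248 (0.00631). Etv5, an ETS transcription factor, had a slope of 0.297 (0.0210) and Slc17a7, a vesicular glutamate transporter, of -0.359 (0.0497). With the block Pla2g5 had an adjusted p of 0.00976 and Etv5 of 0.0213, while Gata6, Slc16a10 and Slc17a7 had 0.0634, 0.0877 and 0.0967. Also called with the block were Myot, Edn3, Spata24, Prune1, Eif2s3y, Parp4 and Tmem71, with positive slopes. Gm10336, Kcnd2, Hccs, Nptn and Ampd3 were called too, with negative slopes. Among those not given above, the adjusted p with the block ran from 0.0171 for Spata24 to 0.0493 for Ampd3 (limma). No fetal or stress gene was among the 26.

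**Figure D5:**
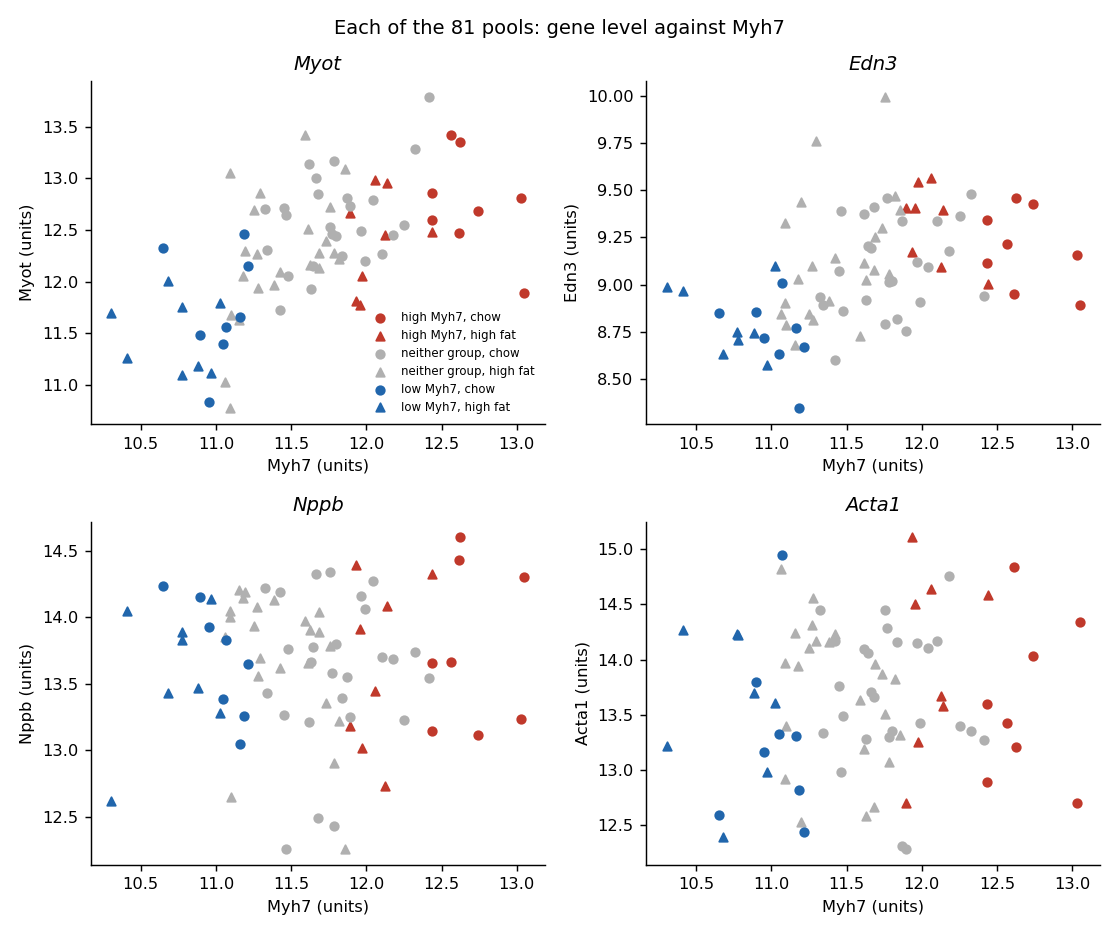
Myot, Edn3, Nppb and Acta1 (vertical axes, units) against Myh7 (horizontal axes, units) in each of the 81 pools, with circles for chow and triangles for high fat. Red and blue pools were chosen on the horizontal axis: Myot and Edn3 had slopes of 0.62 and 0.281 per unit of Myh7, and Nppb had 0.00581.

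The genes whose level was most like Myh7, by Pearson's r over the 49 arrays of neither group after subtracting the diet mean, were other genes than those called. The largest were Tas2r129 (r = -0.574), Snx31 (0.567), Eng (-0.556), Rps13 (0.536) and Kpna2 (-0.525), followed by C130046K22Rik, Gm6334, Hs3st5, Btbd35f7 and Rprl2, the last at 0.484. They are the extremes of 22179 values and share the arrays' scaling, so they are a description. Tas2r129, Snx31, C130046K22Rik, Hs3st5 and Btbd35f7 had means between 4.97 and 8.09 units over the 81 arrays, below the median gene at 8.18. Tas2r129 differed by 0.0221 units between the high and low pools, against the sign of its r, while the others had the sign of theirs. None of the 10 was called between the high and low pools: Eng, endoglin, differed by -0.0986 units (adjusted p = 0.708, limma) and Kpna2, an importin, by -0.306 (0.734).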

How the data were processed

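Values are the deposited score per probe set, which the authors made with Affymetrix Expression Console, per the submitters' processing notes. Not given in the sources used here are the version, the summarisation and the array build. Every array's 41345 values were found to have mean 8 and SD 2, and the array medians lay between 7.62 and 7.75. Such rescaling hides shifts shared by most transcripts. Diet was taken from the treatment label.

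For each of 22180 genes the single-symbol probe set with the highest mean over 81 arrays was used, without a filter on level. Myh7 has 1 such probe set. Names came from the platform's gene table, and 21994 genes matched a RefSeq table (GRCm38.p6) by Entrez identifier. High and low arrays were compared with limma 3.58.1 in R 4.3.3 with diet as a term and Benjamini-Hochberg adjustment over all genes but Myh7, at 0.05, two-sided. The scripts were tested on simulated data. P-values measure the spread between pools, whose number limits the precision. Strains with an array in each diet count with 2 arrays, so strain was also fitted as a random block. Permutation tests used scipy 1.17.1, with 1e+05 draws for correlations.

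Named were all fetal and stress genes and myosin heavy chains, up to 4 genes with the smallest p of each other list, called genes by the 12 largest differences per direction (predicted genes counted only), and the 10 genes most like Myh7. Gm10336, a predicted gene, fell outside the rule and was named after its values were seen. The genes given for the slope over all arrays, a part of the 26 called, were also named after their values were seen. Members and lists (760 of 845 distinct genes measured, in 51 lists) were chosen with earlier results of these data known.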

Additional observations from a re-analysis of the deposited data

Results flagged for a closer look

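In 12 of 192 sets of 8 pools (48 genes by diet and group), 1 pool lay far from the other 7, with a gap above 0.526 of the whole range; chance flags about 1 in 20. In the high pools on high fat these were Myh7 in BXD101 (12.439 units, next 12.139), Nppa in BXD73 (14.895, next 15.476) and Nmrk2 in BXD70 (10.51, next 9.785). Myh7 chose these pools, so its flag is a description, and the chance rate does not apply to it. In the high pools on chow it was Myl7, the atrial light chain, in BXD73 (7.82, next 11.885). In the low pools on chow these were Nppa in BXD81 (14.163, next 15.244), Tnnt1 in BXD98 (7.605, next 8.04) and Enah in DBA/2J (12.716, next 12.314). In the low pools on high fat these were Gm10336 in BXD49 (10.578, next 11.025), Tnni1 in BXD90 (7.867, next 8.319), Enah in BXD64 (12.533, next 12.221), Pfkp in BXD45 (9.846, next 10.247) and Igf1 in BXD49 (10.307, next 9.708).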

How the results depend on the processing

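The count of 4 genes between high and low Myh7 pools changed with most choices. It was 2 with strain as a random block, with 6 arrays per diet and group, with array weights, without the parents, and with an atrial, skeletal muscle or adipocyte covariate. It was 12 with 12 arrays per diet and group, 17 among genes above the median gene, 10 with a trend and robust fit, 7 with the median over probe sets, and 26 with Myh7 as a continuous term over 81 arrays. It was 0 with chow arrays only, with high fat arrays only and, chosen after seeing the data, with strains in the same group on both diets and with a smooth muscle covariate. Quantile normalization gave 6, centring on the median 3, a cardiomyocyte covariate 6 and leaving out the 2 arrays least like the others (BXD45 on high fat and DBA/2J on chow, added after seeing the data) 3, in which Gm10336 had an adjusted p of 0.102. Myot and Edn3 were each called in 16 of 20 alternatives, Cnksr1 in 8 and Gm10336 in 7, with the main direction in all 20 for all 4. Adjusted p-values over the alternatives ran from 2.67e-05 to 0.959 for Edn3 and from 0.000923 to 0.959 for Myot. No fetal or stress gene was called in 578 pairs of gene and alternative (smallest adjusted p 0.152). By the rank of the other diet, 4 genes were called among genes above the median gene against 1 otherwise. The other-diet differences of Myh7 and the strain agreement stayed on their side of the threshold in the alternatives run for them, and the slope in the arrays of neither group gave 0 calls in each. Causes of these changes were not tested. The interaction of group and diet gave 0 calls by limma (1003 genes at an unadjusted p under 0.05).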

Other observations

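Spike-in probe sets were compared between the high and low pools in the same way, as features that do not come from the heart. Of 92 ERCC probe sets 0 were called and 2 (2.17%) had an unadjusted p under 0.05, and of 75 bacterial and phage probe sets 0 were called and 4 (5.33%) had one (limma). Over 41155 other probe sets 3 were called and 6.14% had an unadjusted p under 0.05. These include the Myh7 probe set, which chose the arrays, so its own result was fixed in advance and is no test. The largest difference among them, 1.501 units, was that of the Myh7 probe set and is a description.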
